A study of Homo sapiens with 24 samples.

Results

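The genes described here encode 40 factors of ribosome biogenesis and RNA polymerase I, taken by symbol from the 58735 entries of each raw count file. All 40 were found once, and all 40 passed the low-count filter in each cell line. They were followed in 8 groups of 3 libraries each. HCC1395, HCC38 and HCC1937, established human lines of triple-negative breast cancer, received either the solvent DMSO or a combination of 5 uM tazemetostat (EZH2i), an inhibitor of EZH2, which methylates histone H3, with 5 uM ipatasertib (AKTi), an inhibitor of the AKT kinases. HCC1395 also received 5 uM EZH2i alone or 5 uM AKTi alone. The labels place a seeding and dosing schedule beside another line and another assay, so the length of treatment of these samples is not clear. Nothing in the labels says that replicates A, B and C were separate cultures, so the p-values rest on a spread between samples that may be technical. In RNA from whole cultures, fewer cells with a transcript and less of it per cell cannot be told apart.

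A ribosome is built in the nucleolus. RNA polymerase I transcribes one long precursor RNA, small nucleolar RNA-protein particles (snoRNPs) mark it by methylation (box C/D particles) and pseudouridylation (box H/ACA particles), and many assembly factors, helicases and nucleases cut and fold it into the small and the large subunit. Growth signals through AKT and mTOR are known to raise this output, and MYC, a transcription factor that binds the E-box sequence CACGTG, is known to act on many of the genes.

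The members the results turn on lie, in the GENCODE annotation of hg38, at chr4:4267701-4290169 (LYAR), chr10:68956128-68985073 (DDX21), chr20:2652145-2658393 (NOP56), chr2:86020216-86106155 (POLR1A), chr5:171387116-171411137 (NPM1) and chr16:69741867-69754940 (NOB1). Counts are of whole genes, so no exon or isoform is told apart.

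Since the members moved largely together, their RefSeq promoter windows (250 bases before to 50 after a start, GRCh38.p14) were searched for CACGTG, a palindrome that reads the same on both strands. Of the 40 members 34 had a window, and 15 of these (44.1%) held the E-box in at least 1 window, against 8.77% of the 27305 genes with a window and 12.2% of the 11661 of them that were tested in HCC1395. In 14 of the 15 the E-box lay within 50 bases of the start. The core CCGGAA of ETS factors, searched on both strands, was in 18 members (52.9%, against 20.1% of all genes and 32.5% of those tested), and GCGCATG, part of the NRF1 motif, in 4 (11.8%, against 5.3% and 8.3%). Neither overlaps CACGTG in its letters. The windows shown belong to the 4 members with an E-box and the largest change under AKTi, 5′ to 3′ in the direction of transcription, with the E-box in capitals.

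LYAR: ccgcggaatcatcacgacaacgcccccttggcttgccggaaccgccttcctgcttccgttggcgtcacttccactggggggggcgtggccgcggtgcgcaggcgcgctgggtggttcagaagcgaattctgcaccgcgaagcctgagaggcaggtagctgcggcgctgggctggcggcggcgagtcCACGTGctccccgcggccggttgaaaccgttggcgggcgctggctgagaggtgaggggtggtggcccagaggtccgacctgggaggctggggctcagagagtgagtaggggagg
EBNA1BP2: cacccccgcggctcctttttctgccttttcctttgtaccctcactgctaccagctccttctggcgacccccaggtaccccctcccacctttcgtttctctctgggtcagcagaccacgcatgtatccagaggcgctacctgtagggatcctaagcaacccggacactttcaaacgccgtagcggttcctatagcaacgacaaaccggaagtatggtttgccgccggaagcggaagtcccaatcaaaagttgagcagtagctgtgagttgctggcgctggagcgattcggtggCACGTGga
RRP9: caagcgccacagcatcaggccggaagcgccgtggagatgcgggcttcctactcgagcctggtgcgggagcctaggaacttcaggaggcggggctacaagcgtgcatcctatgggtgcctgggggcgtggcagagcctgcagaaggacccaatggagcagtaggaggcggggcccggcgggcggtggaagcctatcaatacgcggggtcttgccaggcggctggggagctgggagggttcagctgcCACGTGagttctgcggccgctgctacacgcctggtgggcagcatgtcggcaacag
DDX21: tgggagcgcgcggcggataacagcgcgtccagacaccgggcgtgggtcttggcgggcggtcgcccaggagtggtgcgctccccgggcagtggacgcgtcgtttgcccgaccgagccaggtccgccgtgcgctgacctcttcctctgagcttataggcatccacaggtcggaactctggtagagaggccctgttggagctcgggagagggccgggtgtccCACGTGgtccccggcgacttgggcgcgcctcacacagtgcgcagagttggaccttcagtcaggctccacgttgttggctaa

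The LYAR window (chr4:4289972-4290271, minus strand) has the E-box beginning 64 bases before a start, and that of DDX21 (chr10:68956397-68956696, plus strand) 31 bases before. In RRP9 (chr3:51941855-51942154, minus strand) it begins 5 bases before the start, so that the motif runs across it. In EBNA1BP2 (chr1:43172241-43172540, minus strand) it begins 42 bases after. LYAR, EBNA1BP2 and DDX21 have more than 1 window, and the one with the E-box nearest to a start is shown. Under AKTi 12 of the 15 members with an E-box and 13 of the 19 with a window and none were called lower, with median log2 changes of -0.38 and -0.36. Under EZH2i 9 of the 15 and 12 of the 19 were called lower, with medians of -0.22 and -0.18. Under the combination in HCC1395 12 and 15 were, with medians of -0.59 and -0.42. These are descriptions of letters in a window, with no test, and binding was not measured.

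Library totals ran from 33469927 to 51815656 counts, and a member was counted at least 3 times in every library. HCC1395 was low in the epithelial markers CDH1 (at most 0.977 CPM, counts scaled to a common library total) and EPCAM (0.784 to 5.42 CPM). It was high in VIM (1265 to 2751 CPM, against 888 to 1077 CPM in HCC38 and 46.6 to 69.5 CPM in HCC1937). Both other lines held EPCAM and CDH1 above 200 CPM (lowest 201 and 215 CPM). The epithelial keratins KRT8 and KRT18 were at 28.5 to 128 and 28.2 to 85.1 CPM in HCC1395, and at 525 CPM or more in both other lines. KRT19 was at most 2.04 CPM in HCC1395, 20.5 to 59.2 CPM in HCC1937 and 736 to 1215 CPM in HCC38. KRT5 was at 2.33 to 14.9 CPM in HCC1395 and at most 6.51 CPM in the other lines. Among fibroblast genes, COL1A1 was at 42.3 to 96 CPM in HCC1395 and at most 35.4 CPM in the other lines. PDGFRB and DCN were at most 0.821 CPM. Blood markers reached at most 1.12 CPM, and the endothelial genes PECAM1 and CDH5 were at 21.5 to 31.9 and 12.9 to 34.4 CPM in HCC1937. VWF, the other endothelial gene read, was only at 0.507 to 1.96 CPM in that line. Of the receptor genes, ESR1 was at most 0.208 CPM in HCC1395, 1.8 to 3.23 CPM in HCC38 and 12.5 to 21.4 CPM in HCC1937. PGR was at most 0.102 CPM. ERBB2 was at 42.3 to 65.2, 113 to 169 and 181 to 242 CPM in the same order of lines. Replicate C of the combination in HCC38 stood apart from A and B, with 7.77% of its counts from the mitochondrial genome against 4.76% and 5.19%. The mean mitochondrial share of counts was also higher with treatment in HCC1395, at 4.74% ± 0.39 with EZH2i, 5.55% ± 0.19 with AKTi and 6.20% ± 0.085 with the pair against 3.85% ± 0.08 without (SD, n = 3). It was 5.77% ± 0.84 in DMSO and 7.45% ± 0.96 under the combination in HCC1937, and 5.56% ± 0.41 and 5.91% ± 1.6 in HCC38. With these genes left out of the scaling, 26 members were lower with EZH2i, 33 with AKTi and 33 with the pair in HCC1395, 29 in HCC38 and 31 in HCC1937, where the counts with them are 25, 31, 33, 32 and 31.

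Untreated levels are given first, as the mean CPM per kilobase of annotated exon in the DMSO libraries, all 24 libraries being scaled together. The nucleolar chaperone NPM1 (nucleophosmin) was the highest member in each line, at 226 CPM per kilobase in HCC1395, 309 in HCC38 and 339.5 in HCC1937. NCL (nucleolin), which binds ribosomal RNA and its genes, came next at 138, 221 and 105 CPM per kilobase. Polymerase subunits lay lower: the largest catalytic subunit POLR1A was at 12.01, 8.001 and 4.21 and its partner POLR1B at 2.52, 8.56 and 4.01 CPM per kilobase in the same order of lines. NOP2, a methyltransferase of the large subunit RNA, was the lowest, at 0.164, 0.133 and 0.112, and was counted only 3 to 48 times per library. The annotated gene AC006064.6 overlaps NOP2 on its strand and was counted 0 to 1 times; how reads in the overlap were assigned is not known here, so NOP2 values may understate its RNA.

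**Figure D1:**
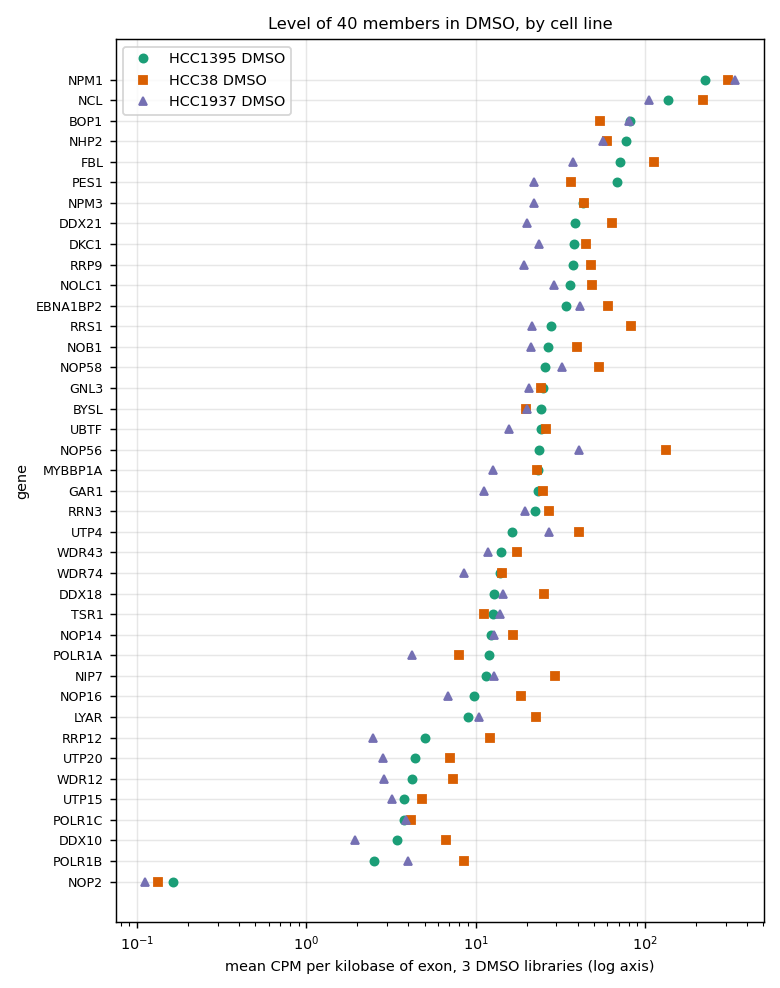
Mean level of each of the 40 members in the 3 DMSO libraries of each cell line, in CPM per kilobase of exon on a log axis, ordered by the level in HCC1395. NPM1 is the highest and NOP2 the lowest member in every line, and NOP56 shows the widest gap, with HCC38 at 134 and HCC1395 at 23.6.

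HCC38 held more of most members than either other line. Against HCC1395, 26 of 40 members were higher and 4 lower, with 38.2% of all 20697 genes tested called higher and 36.5% lower. Against HCC1937 the counts were 33 higher and 2 lower (35.6% and 36.2% of all genes). HCC1937 went the other way, with 26 members lower and 9 higher than in HCC1395 (35.7% and 37.3% of all genes). Called here and below means a Benjamini-Hochberg adjusted p under 0.05 over all genes of the fit, by the 2-sided quasi-likelihood test of edgeR. The median log2 difference of the members was 0.43 for HCC38 minus HCC1395, 0.84 for HCC38 minus HCC1937 and -0.34 for HCC1937 minus HCC1395, beside 0.022, 0 and 0.0067 over all genes.

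The widest gap was in NOP56, a core protein of box C/D particles. It stood at 693, 770.3 and 705 CPM in the HCC38 libraries, 214, 218 and 229.8 in HCC1937 and 132, 125 and 124 in HCC1395 (log2 difference HCC38 minus HCC1395 2.51 ± 0.068 SE, adjusted p = 1.3e-23). POLR1B followed with 53.9, 51.8 and 56.8 CPM in HCC38 and 16.5, 15.8 and 15.6 in HCC1395 (1.76 ± 0.085 SE, adjusted p = 1.57e-17). RRS1, a factor of large subunit assembly, was at 144, 143 and 134 and 44.2, 44.2 and 53.7 CPM (1.57 ± 0.10). In each of these the libraries of both lines lay far apart. NIP7 (1.36 ± 0.068), LYAR (1.34 ± 0.088) and UTP4 (1.32 ± 0.063) were also over 2-fold higher in HCC38, all called. The 4 members lower in HCC38 than in HCC1395 were PES1 (-0.90 ± 0.08), BOP1 (-0.60 ± 0.092), POLR1A (-0.59 ± 0.073) and BYSL (-0.30 ± 0.079). PES1 and BOP1 are partners, with WDR12, in the PeBoW complex of the large subunit, and WDR12 itself was higher in HCC38 (0.80 ± 0.075).

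In HCC1937 the same complex was again uneven. PES1 was at 103, 95.6 and 102 CPM against 313, 303 and 318 in HCC1395 (-1.63 ± 0.081 SE, adjusted p = 3.32e-17), WDR12 was lower too (-0.56 ± 0.076), and BOP1 was called in neither direction (-0.029 ± 0.092 SE, adjusted p = 0.793). POLR1A was the other low member, at 59.7, 55.4 and 55.7 CPM against 162, 171 and 154 (-1.51 ± 0.074 SE, adjusted p = 2.46e-17), while POLR1B was higher in HCC1937 (0.67 ± 0.085). GAR1 (-1.05 ± 0.10), a protein of box H/ACA particles, and RRP12 (-1.02 ± 0.084), which helps to move subunits out of the nucleus, were lower in every HCC1937 library than in any of HCC1395. NOP56 (0.79 ± 0.065), UTP4 (0.74 ± 0.063) and NPM1 (0.59 ± 0.075) were higher in HCC1937. Between HCC38 and HCC1937 the largest differences were RRP12 (2.30 ± 0.085), RRS1 (1.93 ± 0.11), DDX10 (1.77 ± 0.079) and NOP56 (1.71 ± 0.066), all higher in HCC38. The 2 members lower there were BOP1 (-0.57 ± 0.092) and TSR1 (-0.31 ± 0.075).

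EZH2i alone lowered ribosome biogenesis genes in HCC1395 by small amounts. Of 40 members 25 fell and 0 rose, where 14.9% of the 18074 genes tested were called lower and 18.8% higher. By edgeR 0 were higher at an unadjusted p under 0.05, and the Wald test of DESeq2 also called 0 higher. The median log2 change was -0.18, beside 0.015 over all genes. By role, 10 of 11 factors of the small subunit fell, 8 of 11 of the large subunit, 3 of 4 of the box H/ACA group, 2 of 6 of the polymerase group, 1 of 3 box C/D proteins and 1 of 5 other nucleolar proteins. Leaving out each of the 12 HCC1395 libraries in turn, and under every other setting tried, 17 of the 25 calls held. The calls of NOP56, NOP16, NHP2, DDX10, DDX18, WDR12, NIP7 and BYSL were each lost without at least 1 library, and the count ran from 18 (without EZH2i replicate C) to 35 (without combination replicate B).

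DDX21, an RNA helicase that works in both polymerase I transcription and RNA processing, changed most. It fell from 195, 191 and 184 CPM in DMSO to 131, 135 and 140.1 CPM under EZH2i (log2 change -0.49 ± 0.07 SE, adjusted p = 2.29e-05). POLR1A fell from 159, 169 and 152 to 113, 122 and 116 CPM (-0.45 ± 0.072 SE, adjusted p = 7.55e-05). Both sets of libraries were fully apart. NOLC1, a chaperone that helps to assemble snoRNPs, fell from 143, 146 and 135 to 107, 103 and 103 CPM (-0.44 ± 0.058 SE, adjusted p = 5.55e-06). Among small subunit factors, the scaffold protein UTP20 went from 43.8, 44.3 and 41.98 to 30.4, 31.8 and 36.4 CPM (-0.40 ± 0.087), TSR1, which acts late in the pathway, from 66.4, 71.3 and 68.6 to 52.7, 54.7 and 53.2 CPM (-0.36 ± 0.075) and RRP12 from 40.6, 42.8 and 43.5 to 33.8, 33.8 and 33.6 CPM (-0.33 ± 0.055), all called and without overlap. DKC1, the pseudouridine synthase of box H/ACA particles, held the middle of the list (-0.19 ± 0.047). NPM1 had the only positive value, 0.067 ± 0.06 SE, adjusted p = 0.428, and was not called. NOP2 had the smallest change (-0.015 ± 0.36).

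AKTi alone lowered more members, and by more, but raised 2. Of the 40 members 31 fell in HCC1395 and 2 rose (22.6% and 27.1% of all genes tested), with a median log2 change of -0.38 beside 0.061 over all genes. This comparison shares its DMSO libraries with that of EZH2i. All 3 box C/D proteins and all 4 of the box H/ACA group fell, as did 9 of 11 small subunit factors, 8 of 11 large subunit factors, 4 of 5 other nucleolar proteins and 3 of 6 of the polymerase group. Of the 31 lower calls 29 held without each library and under every setting, the exceptions being NOP14 and WDR12, and both higher calls held.

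LYAR, a nucleolar protein of growing cells that takes part in ribosomal RNA production, fell most. Its libraries read 21.7, 19.7 and 20.1 CPM in DMSO and 9.18, 10.6 and 9.85 CPM under AKTi (log2 change -1.05 ± 0.092 SE, adjusted p = 5.93e-09). NOP56 fell from 129.8, 123 and 123 to 69.5, 70.6 and 73.1 CPM (-0.82 ± 0.05 SE, adjusted p = 3.23e-11), and its box C/D partners by less: NOP58 had a log2 change of -0.46 ± 0.054 and the methyltransferase FBL (fibrillarin) one of -0.26 ± 0.06. In each of these the treated libraries lay below every DMSO library. Among large subunit factors, BOP1 went from 286, 285 and 326 to 184, 181 and 169 CPM (-0.75 ± 0.063 SE, adjusted p = 3.61e-09) and EBNA1BP2 from 123, 117 and 118 to 73.5, 72.2 and 68.9 CPM (-0.74 ± 0.047 SE, adjusted p = 5.95e-11). RRP9, a protein of the U3 snoRNP that starts small subunit processing, went from 58.2, 57.1 and 59.7 to 37.3, 37.3 and 36.5 CPM (-0.65 ± 0.068), and NCL from 949, 952 and 915 to 652, 649 and 639.7 CPM (-0.54 ± 0.043). These 4 were again fully apart. MYBBP1A, a nucleolar partner of polymerase I, lay at the middle of the list (-0.40 ± 0.052).

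NOB1 and NPM1 went against the rest. NOB1, the nuclease that makes the mature end of the small subunit RNA, rose from 56.1, 58.2 and 52.8 to 96.8, 90.1 and 91.9 CPM (log2 change 0.74 ± 0.063 SE, adjusted p = 4.19e-09), while under EZH2i it was at 46.7, 45.5 and 43.5 CPM (-0.30 ± 0.064 SE, adjusted p = 0.000959). NPM1 rose from 909.5, 814 and 835 to 1083, 1109 and 1025 CPM (0.33 ± 0.06 SE, adjusted p = 0.0001). For both genes every AKTi library exceeded every DMSO library. NPM1 has 45 annotated pseudogenes by symbol, with which reads could be shared. The other 7 members were not called: PES1 (-0.014 ± 0.052 SE, adjusted p = 0.849), POLR1C, a subunit shared with RNA polymerase III (-0.027 ± 0.064), WDR74 (-0.023 ± 0.057), NOP2 (0.078 ± 0.36), POLR1B (-0.089 ± 0.08), the ribosomal DNA binding factor UBTF (-0.10 ± 0.044 SE, adjusted p = 0.0612) and UTP20 (-0.21 ± 0.087 SE, adjusted p = 0.0537). DESeq2 called UBTF and UTP20 lower. PES1 and BOP1, partners in one complex, thus had log2 changes of -0.014 and -0.75 in the same libraries, and WDR12 was between them (-0.18 ± 0.064).

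**Figure D2:**
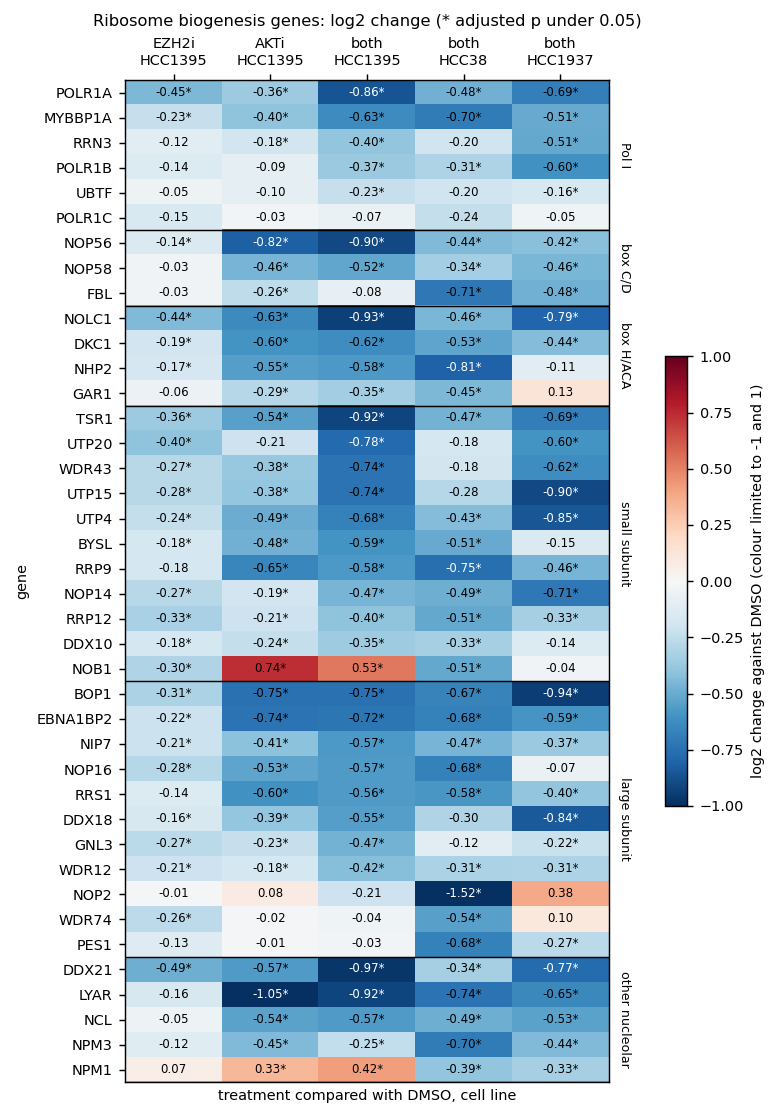
Log2 change of each of the 40 members against DMSO (rows, grouped by role) in 5 comparisons (columns), each over 3 treated and 3 DMSO libraries; a star marks an adjusted p under 0.05 and the colour stops at -1 and 1. Blue prevails in every column, and NOB1 and NPM1 are red under AKTi and under the combination in HCC1395.

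Under both inhibitors together 33 of 40 members fell in HCC1395 and 2 rose against DMSO (27.4% and 32.5% of all genes tested), and the median log2 change was -0.57 beside 0.065 over all genes. In the polymerase group 5 of 6 fell, and all 11 small subunit factors but NOB1. DDX21 fell from 195, 191 and 184 CPM to 94.6, 84.6 and 112 CPM (log2 change -0.97 ± 0.071 SE, adjusted p = 7.34e-10), NOLC1 from 143, 146 and 135 to 72.5, 68.4 and 81.8 CPM (-0.93 ± 0.059 SE, adjusted p = 2.53e-11) and TSR1 from 66.4, 71.3 and 68.6 to 37.3, 30.9 and 41.1 CPM (-0.92 ± 0.076 SE, adjusted p = 2.06e-09). In all 3 the ranges were far apart. LYAR, at 10.8, 12.2 and 9.42 CPM (-0.92 ± 0.09), and NOP56, at 64.6, 71.02 and 65.1 CPM (-0.90 ± 0.05), were not called against AKTi alone (adjusted p = 0.286 and 0.2). POLR1A reached 87.99, 76.5 and 100.1 CPM (-0.86 ± 0.072 SE, adjusted p = 6.85e-09). NOP16 lay at the middle (-0.57 ± 0.10).

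The same 2 members rose as under AKTi. NOB1 stood at 82.04, 86.4 and 71.96 CPM (0.53 ± 0.063 SE, adjusted p = 3.36e-07) and NPM1 at 1050.1, 1243 and 1124 CPM (0.42 ± 0.06 SE, adjusted p = 4.27e-06), above every DMSO library. FBL (-0.082 ± 0.059 SE, adjusted p = 0.244), PES1 (-0.029 ± 0.052), WDR74 (-0.043 ± 0.057), POLR1C (-0.07 ± 0.063) and NOP2 (-0.21 ± 0.36) were not called. Without combination replicate B, whose FBL value of 159 CPM exceeded all DMSO values, FBL and PES1 passed the threshold. Of the 33 lower calls 32 held without each library, and NPM3 (-0.25 ± 0.087 SE, adjusted p = 0.0201) was lost without DMSO replicate C or combination replicate A or C.

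The combination was also compared with each agent. Against EZH2i alone 31 members were lower and 3 higher (25.1% and 23.9% of all genes), led by NOP56 (-0.76 ± 0.05), LYAR (-0.76 ± 0.09) and TSR1 (-0.56 ± 0.076). The 3 higher were NOB1 (0.83 ± 0.063), NPM1 (0.35 ± 0.06) and WDR74 (0.22 ± 0.057). Against AKTi alone 18 were lower and 1 higher (18.6% and 17%), led by UTP20 (-0.57 ± 0.088), POLR1A (-0.50 ± 0.072), DDX21 (-0.40 ± 0.071), TSR1 (-0.38 ± 0.077), WDR43 (-0.36 ± 0.062) and UTP15 (-0.35 ± 0.072). Here 8 of 11 small subunit factors and 5 of 6 of the polymerase group were lower, but 0 of 3 box C/D proteins. By edgeR 0 of those 3 were lower at an unadjusted p under 0.05. The 1 higher member was FBL (0.17 ± 0.06 SE, adjusted p = 0.0281), a call lost without AKTi replicate B or C or combination replicate A or B, and when the 2 groups were fitted alone.

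**Figure D3:**
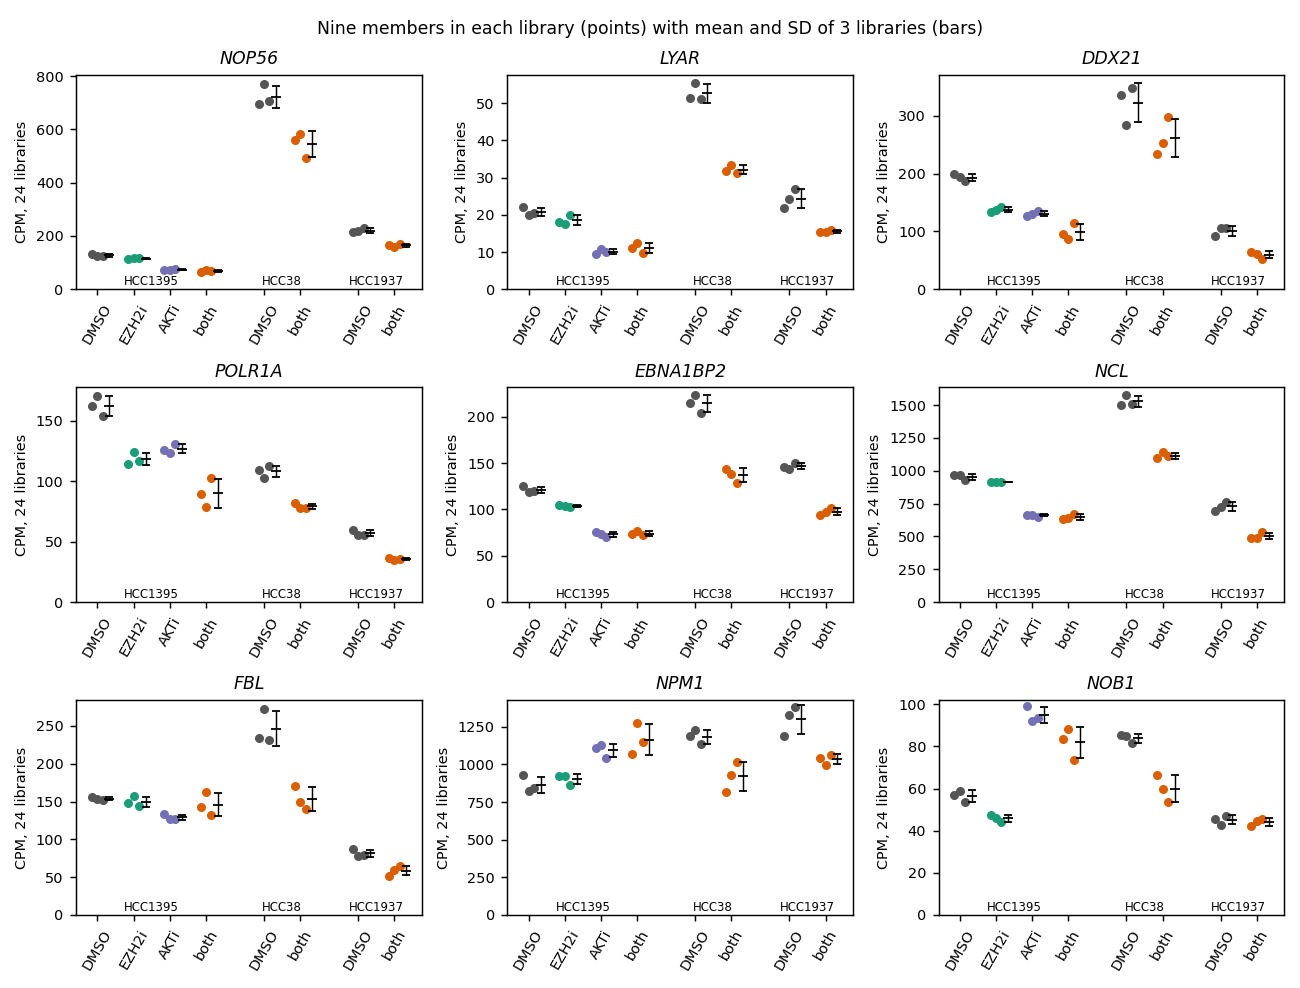
CPM of 9 members in each of the 24 libraries, all scaled together; points are libraries and bars the means of the 8 groups of 3. NOB1 and NPM1 sit above their DMSO libraries in HCC1395 under AKTi and under the combination, while NOP56, LYAR, DDX21, POLR1A and EBNA1BP2 sit below them.

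EZH2i and AKTi left different profiles on the members when set against each other. With EZH2i 20 members were higher and 3 lower than with AKTi (28.6% and 27% of all genes tested). LYAR (0.89 ± 0.092), NOP56 (0.67 ± 0.05), EBNA1BP2 (0.52 ± 0.047), NCL (0.48 ± 0.043) and RRP9 (0.48 ± 0.068) led those higher with EZH2i. The 3 lower were NOB1 (-1.04 ± 0.063), NPM1 (-0.26 ± 0.06) and WDR74 (-0.24 ± 0.057). The polymerase subunit POLR1A was not called (-0.089 ± 0.072 SE, adjusted p = 0.315).

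Whether both agents together gave more than the sum of their log2 changes was tested by the interaction, the change under both minus the summed single-agent changes. By edgeR 0 members were lower and 0 higher than the sum, where 1.06% and 0.526% of all genes tested were called. At an unadjusted p under 0.05 by edgeR 0 members were lower and 8 higher, beside 1590 and 804 of all 18074 genes tested. DESeq2 called 0 members lower and 3 higher (BOP1, WDR74 and EBNA1BP2), and its shares over all genes are not given here. The smallest p belonged to BOP1 (0.32 ± 0.088 SE, adjusted p = 0.0821), followed by EBNA1BP2 (0.23 ± 0.066 SE, adjusted p = 0.0883), WDR74 (0.24 ± 0.08) and RRP9 (0.25 ± 0.096). All 4 values were positive, so the change under both was less negative than the sum. Without combination replicate C 6 members passed as higher, without combination replicate B 4 and without EZH2i replicate A 2, and 0 passed as lower in each. The shares of all genes in these left-out fits are not given here either.

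In HCC38 32 of 40 members fell under the combination and 0 rose against DMSO (14.5% and 16.8% of the 17100 genes tested), with a median log2 change of -0.48 beside -0.014 over all genes. By edgeR 0 were higher at an unadjusted p under 0.05, and DESeq2 called 0 higher. All 3 box C/D proteins, all 4 of the box H/ACA group and all 5 other nucleolar proteins fell, with 9 of 11 large subunit factors, 8 of 11 small subunit factors and 3 of 6 of the polymerase group. The count depended on single libraries: it was 21 without combination replicate B, 27 without A and 37 without C, and 23 or 24 without any DMSO library. Of the 32 calls 20 held under every setting.

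NOP2 had the largest fitted change, but on very few counts. It was at 0.763, 0.527 and 0.637 CPM in DMSO and 0.297, 0.273 and 0.0834 CPM under the combination (log2 change -1.52 ± 0.42 SE, adjusted p = 0.0193), and the call was lost without DMSO replicate A or C or combination replicate B. NHP2, a small protein of box H/ACA particles, went from 90.1, 98.2 and 88.3 to 70.7, 56.8 and 30.4 CPM (-0.81 ± 0.24 SE, adjusted p = 0.0248). Replicate C was far below A and B, and without it the NHP2 change was -0.50, still called. The NHP2 call was lost without any DMSO library or combination replicate B, and with DESeq2 (adjusted p = 0.0701). RRP9 fell from 73.1, 86.01 and 75.4 to 53.3, 45.2 and 40.6 CPM (-0.75 ± 0.12 SE, adjusted p = 0.00123), LYAR from 52.9, 57.4 and 52.4 to 32.1, 33.8 and 31.4 CPM (-0.74 ± 0.094 SE, adjusted p = 0.000302) and FBL from 241, 283 and 238 to 172, 150.1 and 142 CPM (-0.71 ± 0.11 SE, adjusted p = 0.000924). In these 3 every treated library lay below every DMSO library, and replicate C was not alone. NPM3, a relative of nucleophosmin, fell too (-0.70 ± 0.13).

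NPM1, which rose in HCC1395, fell in HCC38, from 1220.3, 1270.2 and 1164 to 829, 936 and 1019 CPM (-0.39 ± 0.098 SE, adjusted p = 0.0127). The NPM1 call was lost without DMSO replicate A or B or combination replicate B. NOB1 fell as well, from 87.7, 87.8 and 83.6 to 67.3, 60.2 and 53.9 CPM (-0.51 ± 0.10 SE, adjusted p = 0.00438). For both, no library of one group entered the range of the other. Among the polymerase subunits POLR1A had the median change of the list (-0.48 ± 0.089 SE, adjusted p = 0.00265). POLR1B was lower by less (-0.31 ± 0.10 SE, adjusted p = 0.0401), and its call was lost without any library but combination replicate C, with the filter of 1 CPM in 3 libraries and with mitochondrial genes left out of the scaling. The 8 members not called were GNL3 (-0.12 ± 0.098), the smallest change, DDX18 (-0.30 ± 0.11), UTP15 (-0.28 ± 0.11), UTP20 (-0.18 ± 0.13), WDR43 (-0.18 ± 0.11), POLR1C (-0.24 ± 0.12), RRN3 (-0.20 ± 0.12), which brings polymerase I to the promoter, and UBTF (-0.20 ± 0.11). All 8 values were negative. DDX21 was called (-0.34 ± 0.11 SE, adjusted p = 0.0471) although its libraries overlapped, at 346, 295 and 357 CPM in DMSO and 236, 256 and 298 CPM under the combination.

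In HCC1937 31 of 40 members fell under the combination and 0 rose (28.8% and 30.5% of the 17692 genes tested), with a median log2 change of -0.45 beside 0.027 over all genes. By edgeR 0 were higher at an unadjusted p under 0.05, and DESeq2 called 0 higher. All 3 box C/D proteins, 5 of 6 of the polymerase group and all 5 other nucleolar proteins fell, with 2 of 4 of the box H/ACA group, and 8 of 11 and 8 of 11 factors of the small and the large subunit. Of the 31 calls 29 held under every setting, and those of GNL3 and UBTF were lost without some libraries.

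BOP1 fell most, from 319, 279 and 311 to 151, 162 and 162 CPM (log2 change -0.94 ± 0.063 SE, adjusted p = 7.55e-09). UTP15 and UTP4, subunits of the complex that binds the growing precursor RNA, fell from 19.1, 20.6 and 21.8 to 12.03, 9.98 and 11.04 CPM (-0.90 ± 0.09 SE, adjusted p = 5.86e-07) and from 146, 157 and 169 to 93.4, 85.5 and 82.8 CPM (-0.85 ± 0.067 SE, adjusted p = 4.5e-08). The groups were far apart in all 3. The helicase DDX18, of the large subunit pathway, fell from 108, 118 and 123 to 66.7, 64.3 and 63.5 CPM (-0.84 ± 0.062 SE, adjusted p = 2.11e-08), NOLC1 from 113, 118 and 122 to 66.7, 67.97 and 68.8 CPM (-0.79 ± 0.057) and DDX21 from 92.7, 107 and 109 to 64.8, 63.1 and 53.6 CPM (-0.77 ± 0.081), again without overlap. NOP58 had the median change (-0.46 ± 0.063). NPM1 fell, from 1208, 1349 and 1411 to 1058, 1019 and 1073 CPM (-0.33 ± 0.063 SE, adjusted p = 0.000304), where it had risen in HCC1395.

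The 9 members not called in HCC1937 were NOB1 (-0.039 ± 0.066), the smallest change, NOP16 (-0.068 ± 0.09), NHP2 (-0.11 ± 0.086), DDX10 (-0.14 ± 0.086), BYSL (-0.15 ± 0.071), POLR1C (-0.046 ± 0.077), GAR1 (0.13 ± 0.10), WDR74 (0.10 ± 0.08) and NOP2 (0.38 ± 0.31). NOB1 was at 46.3, 43.6 and 48.2 CPM in DMSO and 42.7, 45.7 and 46.03 CPM under the combination, with the 2 ranges overlapping. In the box H/ACA particle, DKC1 (-0.44 ± 0.058 SE, adjusted p = 1.08e-05) was thus called lower while its partners GAR1 and NHP2 were not.

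Of the 40 members 21 were called lower under the combination in all 3 lines and 0 higher, where 7.34% of the 14980 genes tested in all 3 were lower in all and 7.8% higher. The 21 were NOP56, NOP58, NOP14, DKC1, NOLC1, NCL, NPM3, DDX21, BOP1, WDR12, RRP9, RRP12, RRS1, UTP4, LYAR, NIP7, EBNA1BP2, POLR1A, POLR1B, MYBBP1A and TSR1. They include POLR1A and POLR1B, which form the catalytic centre of polymerase I. POLR1A was among them under every setting, while POLR1B was lost without any HCC38 library but combination replicate C, with the filter of 1 CPM in 3 libraries and with mitochondrial genes left out of the scaling. The count was 15 without combination replicate B of HCC38, 26 without replicate C, 17 without any other library of HCC38, and between 18 and 23 under the other settings. POLR1C was called in no line. NPM1 and NOB1 were called in opposite directions in HCC1395 and HCC38.

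Tests of the difference between lines, with all 24 libraries in 1 fit, called 6 members as responding lower and 10 higher in HCC38 than in HCC1395, where 15.6% and 17.4% of all 20697 genes did. The 4 with the smallest p were NOB1 (-1.02 ± 0.11 SE, adjusted p = 1.13e-08), NPM1 (-0.79 ± 0.11 SE, adjusted p = 9.37e-07), NOLC1 (0.49 ± 0.088 SE, adjusted p = 5.89e-05) and PES1 (-0.63 ± 0.11 SE, adjusted p = 6.2e-05). A positive value here means a smaller fall in HCC38, as for NOLC1, which changed by -0.93 in HCC1395 and -0.46 in HCC38 in the fits of each line. PES1 was not called in HCC1395 (-0.029) and was lower in HCC38 (-0.68). Between HCC1937 and HCC1395 4 members responded lower and 4 higher (12% and 11.3% of all genes), first NPM1 (-0.76 ± 0.11 SE, adjusted p = 2.15e-06), NOB1 (-0.57 ± 0.11 SE, adjusted p = 0.000148), NOP56 (0.48 ± 0.092 SE, adjusted p = 0.000209) and BYSL (0.44 ± 0.11 SE, adjusted p = 0.0036).

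Between HCC38 and HCC1937 7 members responded lower and 9 higher in HCC38 (14.3% and 17.7% of all genes), first DDX18 (0.57 ± 0.11 SE, adjusted p = 0.000138), UTP15 (0.64 ± 0.12 SE, adjusted p = 0.000184), UTP4 (0.45 ± 0.088 SE, adjusted p = 0.000228) and NOB1 (-0.45 ± 0.11 SE, adjusted p = 0.0017). Without combination replicate C of HCC38 the counts were 4 lower and 10 higher for HCC38 minus HCC1395, and 7 lower and 8 higher for HCC38 minus HCC1937. The median difference of the members was 0.087, 0.11 and -0.045 in the 3 tests in the order given, beside -0.022, -0.012 and -0.0077 over all genes. Across the 40 members the log2 changes of HCC1395 and HCC1937 had a Pearson r of 0.59 (0.56 over 16026 genes), those of HCC1395 and HCC38 one of -0.08 (0.45 over 15644 genes) and those of HCC38 and HCC1937 one of -0.32 (0.49 over 15688 genes). Without NOP2, left out after seeing the data for its few counts, the 3 values over 39 members were 0.60, 0.01 and -0.055, so that the negative r of HCC38 and HCC1937 rested largely on NOP2. These r are descriptions over genes, which are not independent replicates and share their libraries. The members spanned a narrower range than all genes (-0.97 to 0.53 against -3.69 to 8.58 in HCC1395), so the 2 kinds of r are not directly comparable. A low r here does not mean opposite changes: 38 members had a negative change in HCC1395, 40 in HCC38 and 37 in HCC1937.

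**Figure D4:**
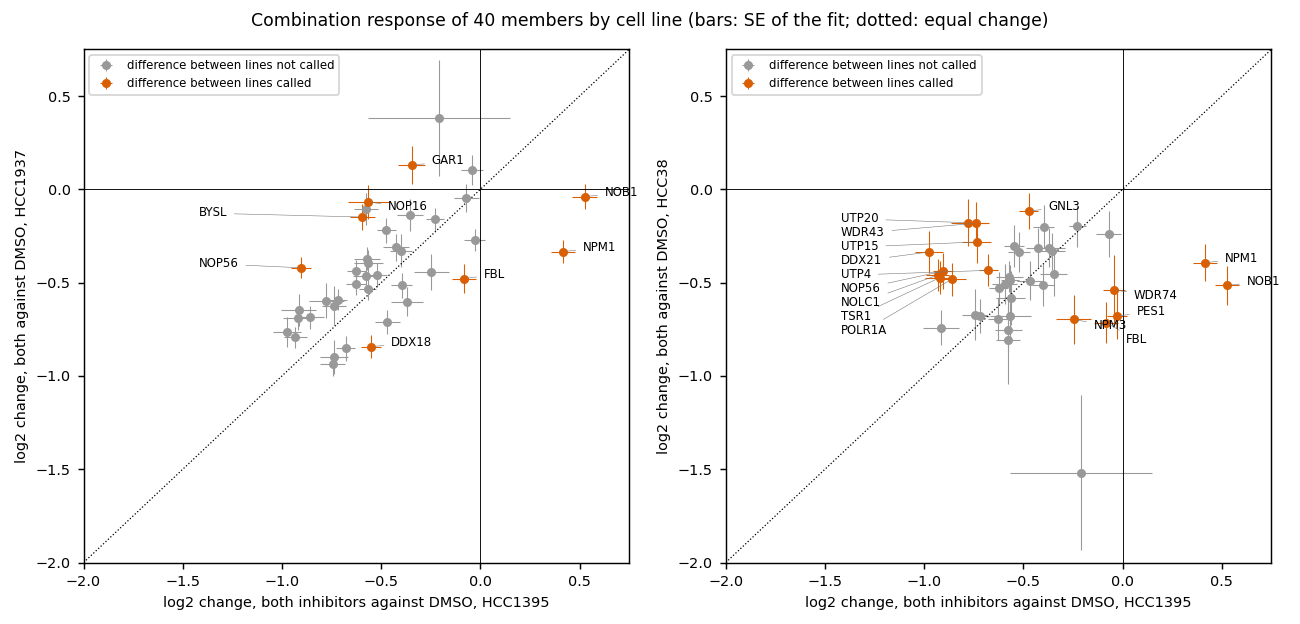
Log2 change under the combination of each of the 40 members in HCC1937 (left) and HCC38 (right) against that in HCC1395, from the fits of each line; named points are members whose response differed between the lines at an adjusted p under 0.05. NPM1 and NOB1 lie right of 0 in HCC1395 in both panels and at or below 0 in the other line.

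The members' share of library counts was lower in the treated groups. Leaving out NPM1 and NCL, which are far more abundant, the other 38 members held 0.334% ± 0.002 (SD, n = 3) of the counts of untreated HCC1395, 0.294% ± 0.0017 with EZH2i, 0.255% ± 0.00033 with AKTi and 0.24% ± 0.0028 with the pair. In HCC1937 the share went from 0.272% ± 0.008 to 0.194% ± 0.0032, and in HCC38 from 0.491% ± 0.0059 to 0.38% ± 0.017. The treated HCC38 share was thus above the untreated one of both other lines. NOP56 weighs much in this, with a mean of 545 CPM in treated HCC38, 127 in untreated HCC1395 and 220 in untreated HCC1937. The share without NOP56 was not computed. Counts of long transcripts weigh more in such a share.

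Genes of the cytosolic ribosomal proteins, which are built into the ribosome, did not follow the biogenesis factors in every line. In HCC1395 they held 6.55% ± 0.095 of the counts of DMSO libraries, 7.13% ± 0.24 with EZH2i, 7.74% ± 0.28 with AKTi and 8.58% ± 1.1 with the pair, the last including 9.79% in replicate B. The share went from 4.97% ± 0.27 to 5.78% ± 0.3 in HCC1937 and from 5.82% ± 0.45 to 4.97% ± 0.5 in HCC38. Of the 81 such genes tested, 0 were lower and 3 higher under EZH2i (14.9% and 18.8% of all genes). The 3 higher were 3.7% of those tested, below the share of all genes. Under AKTi 4 were lower and 40 higher (22.6% and 27.1%), and under the combination in HCC1395 4 and 59 (27.4% and 32.5%). The combination gave 3 lower and 42 higher in HCC1937 (28.8% and 30.5%), and 34 lower and 0 higher in HCC38 (14.5% and 16.8%). For the 0 lower under EZH2i, edgeR gave 1 lower at an unadjusted p under 0.05, and for the 0 higher in HCC38 1 higher. Their median log2 change under the combination was 0.34 in HCC1395, 0.20 in HCC1937 and -0.32 in HCC38, where the members' medians were -0.57, -0.45 and -0.48. Ribosomal protein genes have many pseudogenes, with which reads may be shared. Of the genes of the mitochondrial ribosome, 19 of 78 were lower with EZH2i (14.9% of all genes), 49 with AKTi (22.6%) and 54 with the pair (27.4%) in HCC1395, 44 of 77 in HCC1937 (28.8%) and 48 of 78 in HCC38 (14.5%), with at most 3 higher in any of these.

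**Figure D5:**
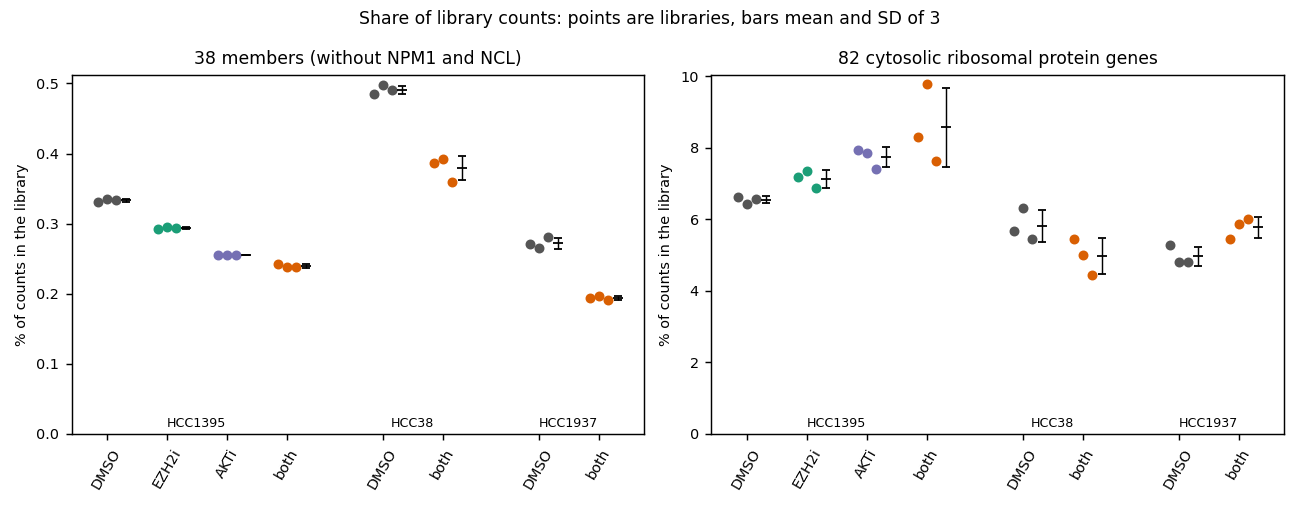
Share of library counts from 38 members, without NPM1 and NCL (left), and from the genes of the cytosolic ribosomal proteins (right), in percent; points are libraries and bars the means of 3. The left share falls in every treated group of HCC1395, HCC38 and HCC1937, while the right one is higher than in DMSO in the treated groups of HCC1395 and HCC1937 and lower in that of HCC38.

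A wider list of 109 other genes of the pathway was chosen by function, with earlier results of these data known, so it is not independent support. Like the members, it had a negative median log2 change in each comparison below. Under EZH2i 47 were lower and 1 higher (14.9% and 18.8% of all genes tested). The median log2 change was -0.15, beside 0.015 over all genes. Under AKTi 68 were lower and 10 higher (22.6% and 27.1%, median -0.27 beside 0.061). Under the combination in HCC1395 79 were lower and 6 higher (27.4% and 32.5%, median -0.38 beside 0.065). In HCC1937 76 were lower and 4 higher (28.8% and 30.5%, median -0.37 beside 0.027). In HCC38 58 were lower and 1 higher (14.5% and 16.8%, median -0.33 beside -0.014). The largest changes under EZH2i among those with a mean of at least 5 CPM were URB1 (-0.49 ± 0.081), HEATR1 (-0.45 ± 0.087), UTP18 (-0.44 ± 0.065) and PDCD11 (-0.42 ± 0.068). Under AKTi they were RRP7A (-0.89 ± 0.068), URB2 (-0.82 ± 0.068), and 2 that were higher, the assembly factor NOP53 (0.86 ± 0.068) and POLR1D (0.82 ± 0.068), a subunit shared by polymerases I and III. NOP53 was also higher under the combination in HCC1395 (1.08 ± 0.068) and HCC1937 (1.05 ± 0.19), next to URB2 (-1.14 ± 0.069 and -1.01 ± 0.081) and NOL11 (-0.97 ± 0.05 and -0.79 ± 0.067), which were lower. TCOF1 (treacle), which works with UBTF on the ribosomal genes, was lower in HCC1937 (-0.87 ± 0.061). In HCC38 BUD23 (-0.91 ± 0.10), PPAN (-0.86 ± 0.27), ZNRD1 (-0.86 ± 0.18), another polymerase I subunit, and IMP4 (-0.79 ± 0.12) led, all lower.

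MYC and its antagonists were read beside the members, since MYC is known to act on this pathway. The panel also held MYCN, MAX, MNT and MXD3, whose values are not given here. MYC transcript fell under EZH2i in HCC1395 (-0.48 ± 0.052 SE, adjusted p = 2.94e-07), rose under AKTi (0.53 ± 0.051 SE, adjusted p = 2.69e-08), was slightly higher under the combination (0.12 ± 0.051 SE, adjusted p = 0.0489), and was higher in HCC1937 (1.13 ± 0.071 SE, adjusted p = 3.91e-09). In HCC38 it was not called (0.05 ± 0.082 SE, adjusted p = 0.68). The members' median log2 change in these comparisons, in the order given, was -0.18, -0.38, -0.57, -0.45 and -0.48. MXI1, which competes with MYC for its partner MAX, was higher in each comparison, by 0.22 ± 0.054 with EZH2i, 1.59 ± 0.053 with AKTi, 1.70 ± 0.053 with the pair, 0.76 ± 0.12 in HCC38 and 1.74 ± 0.075 in HCC1937. MXD4, of the same family, was higher in all but HCC38 (0.14 ± 0.15 SE, adjusted p = 0.513), most in HCC1937 (0.74 ± 0.073). MXD1 was lower under EZH2i (-0.51 ± 0.099) and in HCC1937 (-0.56 ± 0.076) and higher under AKTi (0.42 ± 0.094). Its changes under the combination in HCC1395 and HCC38 are not given here. Whether any of these bears on the members was not tested.

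Counting limits some members. The strand setting is unknown here, and 14 members overlap a protein-coding gene on the opposite strand, among them BOP1, PES1, NHP2, EBNA1BP2 and TSR1. NOP2, WDR74, RRS1 and UTP4 each overlap 1 protein-coding gene on their own strand, which counting by strand would not separate. Small nucleolar RNA genes lie inside NOP56 (5), NOP58 (4), NCL (3), WDR43 (3), GNL3 (6), DKC1 (2), TSR1 (2) and POLR1C (1). How reads that lie in both a member and such a gene were assigned is not known here.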

How the data were processed

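Polyadenylated RNA of 24 libraries, 8 groups of 3 from 3 established breast cancer cell lines, was sequenced. The deposited files used here hold raw counts per gene and library, keyed by symbol, which the authors made; fastp, HISAT2 2.0.5, DESeq2 and the build hg38 are named per the submitters' processing notes. Which program counted reads, on which annotation and by strand or not, is not given in the sources used here. The deposited normalised tables were not used. Groups came from the sample labels.

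Counts were fitted in R 4.3.3 with edgeR 4.0.16, which builds on limma 3.58.1, in a fit per line (18074, 17100 and 17692 genes in HCC1395, HCC38 and HCC1937) and a fit of all lines for differences between them (20697 genes). Low counts were removed by filterByExpr (minimum count 10), scaling was by TMM with robust dispersions, and 2-sided quasi-likelihood tests were adjusted by Benjamini-Hochberg over all genes of a fit and called at 0.05. CPM are scaled within the fit. A log2 change is given ± its standard error and a share ± the SD of 3 libraries. The script was tested on simulated data.

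The alternatives were RLE scaling, TMM without genes of the mitochondrial genome, keeping all genes with a count, keeping only genes at 1 CPM in 3 libraries, DESeq2 1.42.0 by its Wald test, the replicate letter as a block, a fit of the 2 groups alone, and each library left out. Library totals of 33469927 to 51815656 counts put the rarest member, NOP2, at 3 to 48 counts. No 2 replicates of a group agreed within counting noise.

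The text names, per comparison, up to 6 called members of largest change, those of median and smallest change and up to 4 against the majority, 4 of smallest p for the interaction and the differences between lines, and up to 4 of the wider list. Of the MYC panel it names MYC, MXI1, MXD4 and MXD1. FBL, NOP58, NCL, WDR12, GAR1 and the members that were not called were added as partners or to complete a count. The members, the lists and their roles were chosen with earlier results of these data known. Promoter windows are those of RefSeq on GRCh38.p14; 34 of the 40 symbols matched.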

Additional observations from a re-analysis of the deposited data

Results flagged for a closer look

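Of the 40 members 16 responded to the combination differently in HCC38 and in HCC1395, 8 in HCC1937 and HCC1395, and 16 in HCC38 and HCC1937, each by the edgeR test of the difference between lines. Of all genes 15.6% and 17.4% were called lower and higher in the first of these tests, 12% and 11.3% in the second and 14.3% and 17.7% in the third, so the members' counts lie near those of all genes. Between HCC38 and HCC1395 the smallest p belonged to NOB1 (-1.02), NPM1 (-0.79), NOLC1 (0.49) and PES1 (-0.63), as log2 differences. NOB1 and NPM1 were higher than in DMSO in HCC1395 and lower in HCC38, and the fall of NOLC1 was smaller in HCC38. Between HCC1937 and HCC1395 it was NPM1 (-0.76), NOB1 (-0.57), NOP56 (0.48) and BYSL (0.44). NOP56 fell by more in HCC1395 than in either other line. Between HCC38 and HCC1937 it was DDX18 (0.57), UTP15 (0.64), UTP4 (0.45) and NOB1 (-0.45). The first 3 of these were lower in HCC1937 by a larger amount than in HCC38.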

How the results depend on the processing

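Across the alternatives no value changed sign among the calls, and most counts of members lower or higher stayed within 1.5 times. Exceptions outside the left-out libraries were few. The interaction had 0 members higher by edgeR with TMM, 2 with RLE scaling, 2 without the low-count filter and 3 with DESeq2. For the combination against AKTi, 1 member was higher, against 2 without the filter and 0 with the 2 groups fitted alone. For EZH2i against AKTi, 3 were lower, against 7 with the 2 groups fitted alone. For the response of HCC1937 less that of HCC1395, 4 were higher, against 8 with the filter of 1 CPM in 3 libraries. Leaving out 1 library at a time gave 0 to 2 members higher for the combination against AKTi, 3 to 5 lower for EZH2i against AKTi, 0 to 6 higher for the interaction, 21 to 37 lower under the combination in HCC38, 2 to 6 higher for the response of HCC1937 less HCC1395 and 6 to 11 lower for that of HCC38 less HCC1937. The cause was not tested.

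With a replicate block, the DMSO libraries of HCC38 had 1 member lower than those of HCC1937, against 2 without it, and the counts of members lower were 24 with EZH2i, 32 with AKTi and 33 with the combination in HCC1395, 33 with it in HCC38 and 30 in HCC1937. Same-lettered libraries of 2 groups had correlations of their deviations from -0.345 to 0.187. Libraries of different letters were not set beside them, so these values cannot say whether letters pair the libraries. At this depth NOP2, with 3 to 48 counts, had a standard error of 0.36 on the log2 scale under EZH2i, so that only large changes of NOP2 could be called.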
